A study of Mus musculus with 6 samples.

Results

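The miR-29 family was examined in tumours and adjacent liver of C57BL/6J mice that developed liver tumours after vector injection. Every row of the deposited table that carries the name mmu-miR-29a, mmu-miR-29b or mmu-miR-29c was taken, whatever its copy number or arm. This gave 6 of the 695 mature microRNAs of the table: miR-29a, miR-29b and miR-29c, and the star arms miR-29a*, miR-29b-1* and miR-29c*. A star marks the arm of a hairpin that usually accumulates less. The 3 tumours and the 3 pieces of normal-looking liver beside them each gave 1 array of 1 colour (Agilent). All mice, the source of the adjacent pieces included, had received 3E10 particles of the adeno-associated virus vector AAV-Rian-CMV by vein 1 day after birth. They were 6 months old when tissue was collected. Liver of uninjected mice was not analysed here. Pairs carry the numbers 1293, 1309 and 1316. The third tumour has the number 1316 as title, but its source label reads 1306. It was paired with the adjacent piece numbered 1316. Whether the tumours came from separate animals is not stated, so the p-values below measure only the spread between these samples.

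MicroRNAs of the miR-29 family are known in mouse and human cells as repressors of collagens and other matrix genes, of the DNA methyltransferases Dnmt3a and Dnmt3b, and of the survival gene Mcl1. In liver they are made by hepatocytes and by stellate cells, and their loss from stellate cells is a known feature of fibrosis. A main arm loads into an Argonaute protein and finds its targets mainly through its seed, bases 2 to 8 from the 5′ end.

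The mature sequences are shown because the paralogs are nearly identical outside the seed, which decides what the array can tell apart. All 6 members matched RefSeq entries of build GRCm38.p6. The seed is in capitals, and sequences run 5′ to 3′.
miR-29a: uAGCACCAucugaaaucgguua
miR-29b: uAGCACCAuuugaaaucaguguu
miR-29c: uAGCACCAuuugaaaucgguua
miR-29a*: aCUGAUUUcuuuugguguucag
miR-29b-1*: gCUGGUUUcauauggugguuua
miR-29c*: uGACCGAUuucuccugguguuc

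The main arms share the seed AGCACCA, and no other mature mouse microRNA of the RefSeq table has it. Counted from 1 at the 5′ end, miR-29c differs from miR-29a by a single substitution, C10U. From miR-29a to miR-29b the substitutions are C10U, G18A, U21G and A22U, and miR-29b is 23 bases long against 22 for the others. From miR-29b to miR-29c they are A18G, G21U and U22A. The end of miR-29b, AGUGUU, is known from human cells as an element that directs miR-29b to the nucleus. Among 1679 mature names in the RefSeq table, 2 end in these letters (0.119%), and neither miR-29a nor miR-29c does. Each of the 3 star arms has a seed of its own. With so few differences, a probe for 1 main arm may also bind its paralogs, so the division of signal among the 3 rows is uncertain.

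The family comes from 4 hairpins at 2 places, shown here with the mature arms in capitals (GRCm38.p6, RefSeq). Mir29a lies at chr6:31062660-31062747 and Mir29b-1 at chr6:31063023-31063093, both on the minus strand with 275 bases between them. Mir29b-2 lies at chr1:195037040-195037120 and Mir29c at chr1:195037547-195037634, both on the plus strand with 426 bases between them.
Mir29a: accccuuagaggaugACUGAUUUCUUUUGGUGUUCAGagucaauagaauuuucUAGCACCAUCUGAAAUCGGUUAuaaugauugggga
Mir29b-1: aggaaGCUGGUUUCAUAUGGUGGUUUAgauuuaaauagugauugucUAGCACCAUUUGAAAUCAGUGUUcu
Mir29b-2: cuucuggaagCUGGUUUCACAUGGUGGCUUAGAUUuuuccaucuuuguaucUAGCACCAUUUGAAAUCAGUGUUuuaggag
Mir29c: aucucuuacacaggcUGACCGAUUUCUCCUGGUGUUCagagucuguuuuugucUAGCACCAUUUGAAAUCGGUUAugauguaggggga

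Mir29b-1 and Mir29b-2 give the same main arm, so the miR-29b row adds both places. The rows that stem from chromosome 6 alone are miR-29a, miR-29a* and miR-29b-1*, and those that stem from chromosome 1 alone are miR-29c and miR-29c*. The star arm of Mir29b-2 was not analysed here.

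Values are log2 values from RMA, which corrects background, makes the distributions of probe values alike between arrays and summarises probes. The deposited rows were not wholly alike in distribution: quantile normalization of them moved members' differences, as given below. Array medians ran from 6.39 to 6.44, and rows near 6 may be background. The hepatocyte microRNA miR-122 ran from 14.75 to 14.82 in the adjacent pieces, and from 14.42 to 14.82 in tumours. Tumour 1293 stood apart: 171 of the 695 microRNAs differed from the mean of adjacent liver by more than 0.5, against 24 in tumour 1309 and 74 in tumour 1316. Only 1 or 2 did so on an adjacent array set against the other adjacent pieces. Results of the members are given with and without that tumour where it moved them, and those of the lists by pair.

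The first comparison asked whether the tumours held other amounts of miR-29 than the liver beside them. The 3 main arms did not move together: miR-29a was nearly level on all 6 arrays as deposited, miR-29b was higher in 2 pairs and lower in 1, and miR-29c was lower in all 3 pairs. No member passed the test. In limma without a block, 0 of the 6 were called lower and 0 higher at an adjusted p of 0.05, against 0.288% and 2.59% of all 695 microRNAs. At an unadjusted p below 0.05, 1 member was lower, miR-29c, and 0 were higher. Of all 695 microRNAs, 14.1% were lower and 5.9% higher at that level, and of the 174 brightest in adjacent liver, miR-29c among them, 51.7% were lower. Those 174 were chosen by their level in adjacent liver alone, so rows bright only in tumours are not among them. The median difference over the 6 members, tumour minus adjacent, was -0.01 on the log2 scale, and over all microRNAs -0.03. By pair the median over members was -0.11, -0.04 and -0.08 in pairs 1293, 1309 and 1316.

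**Figure D1:**
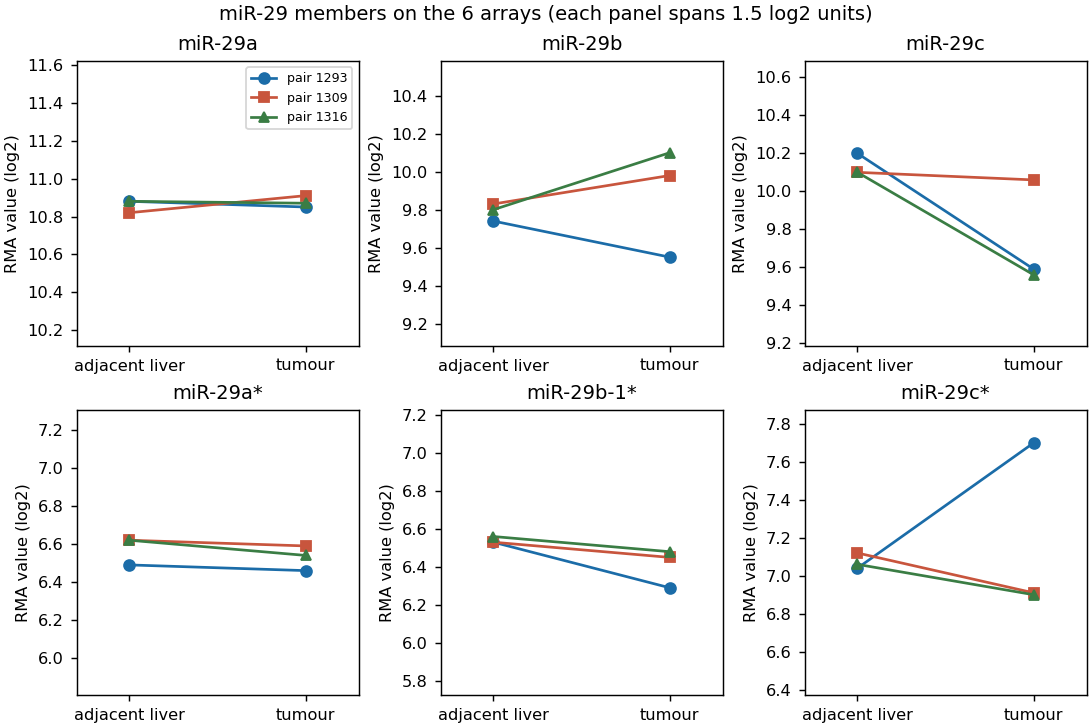
RMA values (log2) of the 6 miR-29 members in adjacent liver and tumour, with a line for each pair. Each panel spans the same 1.5 log2 units. Lines of miR-29a are nearly flat, those of miR-29c slope down by 0.60 and 0.54 in pairs 1293 and 1316, and that of miR-29c* slopes up by 0.66 in pair 1293.

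The main arm of Mir29a had the smallest range of the 6 members. For miR-29a, tumours 1293, 1309 and 1316 gave 10.85, 10.91 and 10.87, and their adjacent pieces gave 10.88, 10.82 and 10.88. Tumours and adjacent pieces overlapped, and all 6 arrays lay within 0.096 of each other. Among the 174 microRNAs brightest in adjacent liver, 0 had a smaller range over the 6 arrays, and the median range of those 174 was 0.73. The difference was 0.02 ± 0.05 (SE; limma adjusted p = 0.88), with a 95% interval from -0.11 to 0.15, or from 7.47% less to 10.7% more in tumours. Quantile normalization of the deposited values gave 0.097 (limma adjusted p = 0.37). On every array miR-29a was the 8th or 9th brightest row. The rows at those ranks ranged from 10.61 to 11.07 over the 6 arrays. RMA's quantile step gives probes of like rank like values, and whether it bears on the small range of miR-29a was not tested.

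The main arm shared by Mir29b-1 and Mir29b-2 differed between tumours. For miR-29b, tumours 1293, 1309 and 1316 gave 9.55, 9.98 and 10.10, against 9.74, 9.83 and 9.80 in their adjacent pieces. Tumour 1293 lay below all adjacent pieces and the other 2 tumours above them. Tumours scattered 6.34 times as widely as adjacent pieces (SD 0.29 against 0.05, n = 3 each). Such scatter was common: the median ratio was 5.01 over the 174 microRNAs brightest in adjacent liver. Of those 174, 90 had a smaller SD among tumours than miR-29b. The difference was 0.09 ± 0.14 (SE; limma adjusted p = 0.77), with a 95% interval from -0.26 to 0.44. Without tumour 1293 it was 0.25 and was called higher (limma adjusted p = 0.029), while without both tissues of pair 1293 it was 0.23 (adjusted p = 0.11). Leaving out tumour 1293 also raised the calls over the whole table, to 51 higher and 85 lower, against 18 and 2 with all arrays. The difference of miR-29b was -0.02 without tumour 1316. Quantile normalization of the deposited values moved it to 0.32 (adjusted p = 0.32). Array weights, which down-weight arrays that scatter most, gave 0.25 and a call (limma adjusted p = 0.033), which the replicate block ended (0.21, adjusted p = 0.15). Over the whole table, array weights without the block called 51 microRNAs higher and 87 lower.

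The main arm of Mir29c had the largest difference among the 6 members. For miR-29c, tumours 1293, 1309 and 1316 gave 9.59, 10.06 and 9.56, and their adjacent pieces gave 10.20, 10.10 and 10.10. Every tumour lay below every adjacent piece, but tumour 1309 by little: its pair differed by -0.05, against -0.60 in pair 1293 and -0.54 in pair 1316. Tumours averaged 9.74 ± 0.28 (SD, n = 3) and adjacent pieces 10.13 ± 0.06. The difference was -0.40 ± 0.14 (SE), a level in tumours 0.76 times that in adjacent liver, with a 95% interval from 0.598 to 0.966 times. It missed the threshold in limma (adjusted p = 0.19; unadjusted p = 0.031), and p was 0.10 in a two-sided exact permutation test, the lowest possible with 3 against 3. Without tumour 1309 the difference was -0.56 and was called lower (limma adjusted p = 0.011), while without both tissues of pair 1309 it was -0.57 and not called (adjusted p = 0.092). Leaving out tumour 1309 also raised the microRNAs called lower over the whole table to 37, against 2 with all arrays. The difference of miR-29c was -0.32 without tumour 1293, -0.31 without tumour 1316 and -0.17 after quantile normalization of the deposited values (adjusted p = 0.19, 0.36 and 0.47). In bulk tissue, fewer cells that make miR-29c and less miR-29c per cell cannot be told apart.

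**Figure D2:**
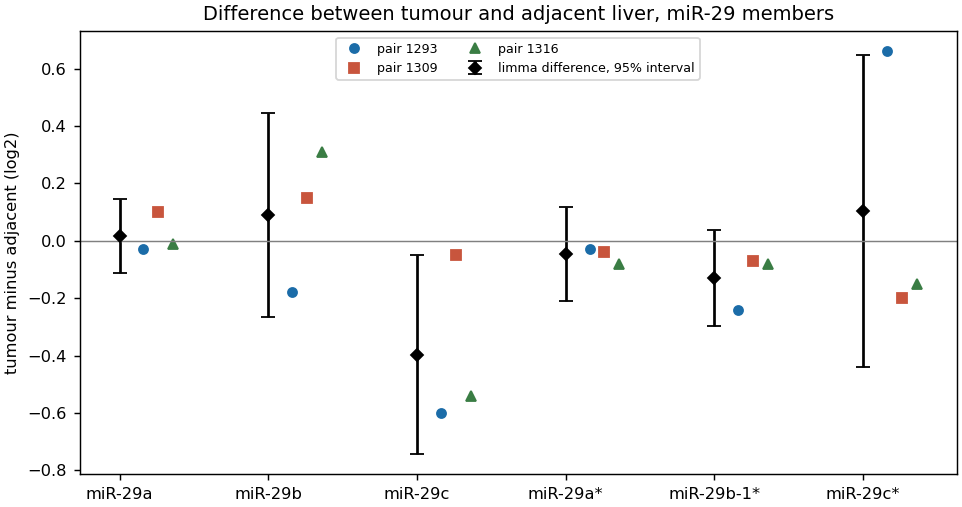
Difference between tumour and adjacent liver (log2) for each miR-29 member. Black diamonds and bars are limma's estimate and 95% interval over 3 arrays a group, and coloured points are the 3 pairs. The interval of miR-29c runs from -0.74 to -0.05, and those of the 5 other members include 0.

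The star arms had group means from 6.41 to 7.17, nearer the array medians than the main arms. Of the 3, miR-29c* was among the 174 microRNAs brightest in adjacent liver. For miR-29a*, tumours 1293, 1309 and 1316 gave 6.46, 6.59 and 6.54, against 6.49, 6.62 and 6.62 in adjacent liver. The groups overlapped, and the difference was -0.05 ± 0.07 (SE; limma adjusted p = 0.74). It was -0.09 without the adjacent piece 1293 and -0.01 without tumour 1293. For miR-29b-1*, which only Mir29b-1 gives, tumours had 6.29, 6.45 and 6.48 and adjacent pieces 6.53, 6.53 and 6.56. Every tumour was below every adjacent piece, yet the difference of -0.13 ± 0.07 (SE) was not called (limma adjusted p = 0.36), and it was -0.07 without tumour 1293.

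The star arm of Mir29c split the tumours. For miR-29c*, tumour 1293 gave 7.70 where tumours 1309 and 1316 gave 6.91 and 6.90, and the adjacent pieces gave 7.04, 7.12 and 7.06. Tumour 1293 was thus above all adjacent pieces and the other 2 were below them. The difference over all arrays was 0.10 ± 0.22 (SE; limma adjusted p = 0.83). Without tumour 1293 it turned to -0.16 (adjusted p = 0.050, just above the threshold when unrounded), and without pair 1293 it was -0.18 (adjusted p = 0.10). In pair 1293, 51 of the 695 microRNAs had a difference at least as high as the 0.66 of miR-29c*, and 77 were higher by 0.5 or more, against 23 in pair 1309 and 36 in pair 1316. Whether the state of that array bears on miR-29c* was not tested.

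Over the family, 2 of 6 members had all tumours below all adjacent pieces, miR-29c and miR-29b-1*, where 22.9% of the 695 microRNAs did. No member had all tumours above, where 8.63% did. Brightness in adjacent liver gives another background, with a limit. Of the 174 microRNAs brightest in adjacent liver, which include the main arms and miR-29c*, 90.8% had a lower mean in tumours, 65.5% separated downwards, and the median difference was -0.31. Rows entered this group by the level that is subtracted, so its lean towards lower differences may be partly built in. Rows bright only in tumours are left out, and the group holds 1 of the 18 microRNAs called higher. Among those 174, 72 microRNAs had a lower difference than miR-29c, which therefore lay near the middle. By contrast, only 13 had a higher difference than miR-29a and 9 a higher one than miR-29b. These places are descriptions of the 6 arrays and were not tested.

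**Figure D3:**
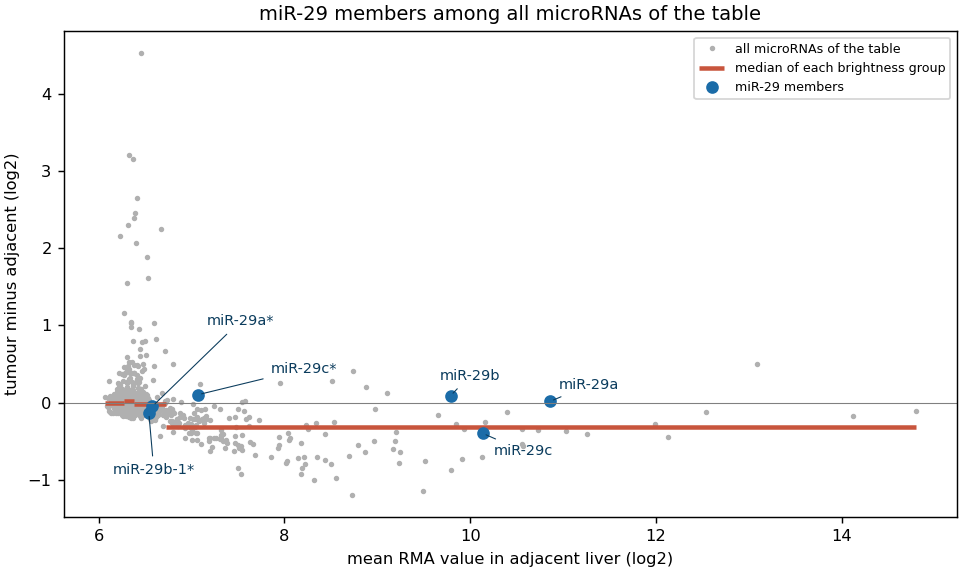
Difference between tumour and adjacent liver (log2) against the mean RMA value in adjacent liver (log2) for the 695 microRNAs, with the miR-29 members in blue. Red bars are medians of 4 groups of rows split by brightness in adjacent liver. In the brightest group, with a median of -0.31, miR-29a (0.02) and miR-29b (0.09) lie above most rows and miR-29c (-0.40) near the middle.

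The second comparison asked whether paralogs and arms differed in how far they changed. It used the log2 difference between 2 members on the same array, so a shift common to an array cancels. Its level also holds the brightness of both probes and has no meaning alone. For miR-29b minus miR-29c it was -0.04, -0.08 and 0.54 in tumours 1293, 1309 and 1316, and -0.46, -0.28 and -0.30 in their adjacent pieces. Every tumour was above every adjacent piece. The changes differed by 0.49 ± 0.21 (SE), in the same direction in 3 of 3 pairs (0.42, 0.19 and 0.84). The two-sided exact permutation p was 0.10, again the lowest possible, and 0.30 after Benjamini-Hochberg adjustment over the 6 comparisons made. Leaving out any 1 array kept it between 0.29 and 0.60, and quantile normalization left it at 0.49.

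For miR-29a minus miR-29c the changes differed by 0.41 ± 0.15 (SE), again with no overlap between tumours and adjacent pieces. In tumours 1293, 1309 and 1316 the value was 1.25, 0.86 and 1.31, and in adjacent pieces 0.68, 0.71 and 0.78. The exact permutation p was 0.10 (adjusted 0.30), and quantile normalization of the deposited values gave 0.27 (exact permutation p = 0.30). These rows differ in sequence by C10U alone. For miR-29a minus miR-29b, the difference of -0.07 ± 0.16 (SE) had no constant sign over pairs (0.15, -0.05 and -0.32; exact permutation p = 0.70) and turned to 0.04 without tumour 1316. After quantile normalization it was -0.22 (exact permutation p = 0.10), and without tumour 1293 it was -0.22 too.

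Both arms of a hairpin are cut from the same precursor, so each star was set against the main arm of its own hairpin. For Mir29a, the changes of main arm and star differed by 0.06 ± 0.06 (SE; exact permutation p = 0.40). For Mir29b-1 they differed by 0.22 ± 0.11 (SE; exact permutation p = 0.20), in the same direction in 3 of 3 pairs, with the main arm partly from Mir29b-2. For Mir29c they differed by -0.50 ± 0.37 (SE; exact permutation p = 0.30). Pair 1293 gave -1.27, pair 1309 0.15 and pair 1316 -0.39, so the main arm had the lower change in 2 of 3 pairs, and without tumour 1293 the mean was -0.16 and without tumour 1309 -0.79. Quantile normalization of the deposited values moved these differences to 0.20 for Mir29a, 0.47 for Mir29b-1 (exact permutation p = 0.10 for both) and -0.27 for Mir29c (p = 0.30). Adjusted over the 6 comparisons, the 3 p-values were 0.48, 0.40 and 0.45. With 3 tumours, none of the 6 comparisons could have passed 0.05.

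**Figure D4:**
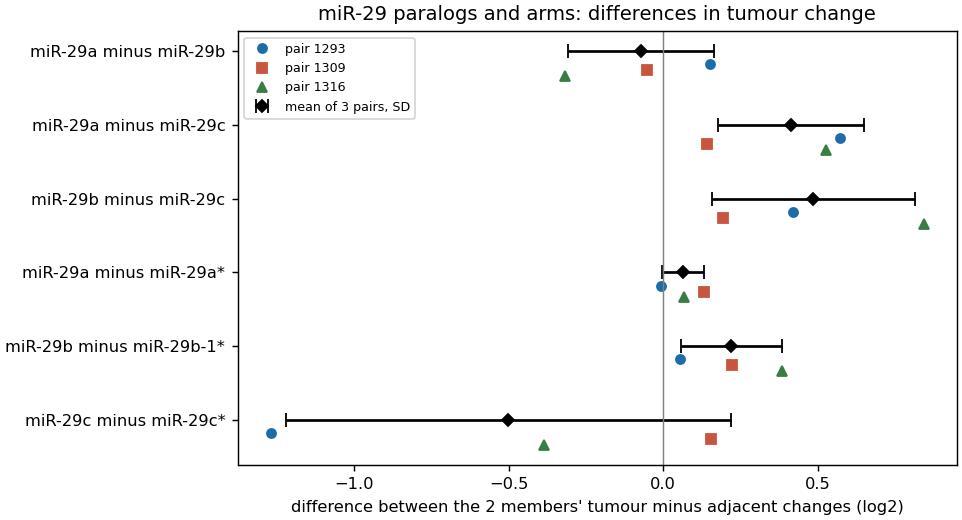
Difference between the changes of 2 miR-29 members (tumour minus adjacent of the first less that of the second, log2). Black diamonds and bars are the mean and SD of 3 pairs, and coloured points are the pairs. All 3 pairs lie above 0 for miR-29a minus miR-29c and for miR-29b minus miR-29c, and miR-29c minus miR-29c* spreads from -1.27 to 0.15.

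Profiles were sought by Pearson's r over the 6 arrays with the mean of the 3 main arms, each centred on its own mean. Those arms did not move together, so opposite changes partly cancel in that mean. In pair 1316, for example, miR-29a, miR-29b and miR-29c differed by -0.01, 0.31 and -0.54. The candidates were 341 microRNAs outside the family with a mean above the median. The 5 closest were miR-671-3p (r = 0.97), miR-335-5p (0.96), miR-2133_v15.0 (0.96), miR-697 (0.96) and miR-532-5p (0.95). These r values measure likeness only: the points share arrays, and the family mean was set mainly by tumour 1293, at -0.21 where the other 5 arrays lay between -0.03 and 0.10. Over those 5 arrays, a setting chosen after seeing the data, r was 0.68 to 0.83. All 5 were dim (6.50 to 6.79 in adjacent liver), with differences in pair 1293 from -0.58 to -0.27, and 0 of the 5 were called.

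Other microRNAs known to act on the same groups of genes were set beside the family. Their counts at an unadjusted p below 0.05 stand against the 14.1% lower and 5.9% higher among all rows. They also stand against the 51.7% lower among the 174 brightest in adjacent liver, a group chosen on the level that is subtracted. Those 174 hold 13 of the 17 measured in fibrosis, 9 of 10 methyltransferase and 8 of 10 Bcl2 entries. Of 18 microRNAs known from fibrosis, 17 were measured. Among the 7 described as promoting it, 0 were called in limma (3 lower and 2 higher at an unadjusted p below 0.05) and the median difference was -0.21 (0.01, -0.24 and -0.35 in pairs 1293, 1309 and 1316). The largest differences were those of miR-199a-3p (-0.85), miR-214 (-0.53), both of stromal cells, and miR-21 (0.50), which is raised in many tumours. Among the 10 described as opposing it, as miR-29 is, 8 had a lower mean. The share with a lower mean was 59.6% of all 695 microRNAs and 90.8% of the 174 brightest in adjacent liver. Of the 10, 2 were called lower, the epithelial miR-200a (-0.63) and miR-200b (-0.57; limma adjusted p = 0.042 for both), and 0 higher. Over all 695 microRNAs the shares called were 0.288% and 2.59%. At an unadjusted p below 0.05, 6 of the 10 were lower and 0 higher. The calls of miR-200a and miR-200b ended under the replicate block (limma adjusted p = 0.15 for both). With an intensity trend, without tumour 1316 or without any 1 adjacent array, 0 microRNAs of the table were called lower. The median of the 10 was -0.31 (-0.33, -0.21 and -0.43 by pair), led by miR-101a (-1.19, adjusted p = 0.15) and miR-194 (-0.76, adjusted p = 0.12), which did not pass. The miR-29 median of -0.01 was nearer 0 than either. It mixes main arms that did not move together with dimmer star arms, and miR-29c (-0.40) lay below both list medians.

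Of 10 microRNAs known to repress DNA or histone methyltransferases, all had a lower mean in tumours, with a median of -0.64 (-0.97, -0.30 and -0.44 by pair). None was called in limma, and 6 were lower and 0 higher at an unadjusted p below 0.05. Besides miR-101a, the largest differences were those of miR-26a (-1.14) and miR-26b (-0.88), known as repressors of Ezh2. Of 10 microRNAs known to repress Mcl1 or other members of the Bcl2 family, 8 had a lower mean, with a median of -0.55 (-0.61, -0.17 and -0.63 by pair), and 0 were called (6 lower and 1 higher at an unadjusted p below 0.05). After miR-101a, which is on this list too, came miR-195 (-0.92) and miR-125b-5p (-0.80). The share with a lower mean was 59.6% among all 695 microRNAs. Among the 174 brightest in adjacent liver, which hold most entries of both lists, it was 90.8%. The messenger RNAs that these microRNAs repress were not measured.

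**Figure D5:**
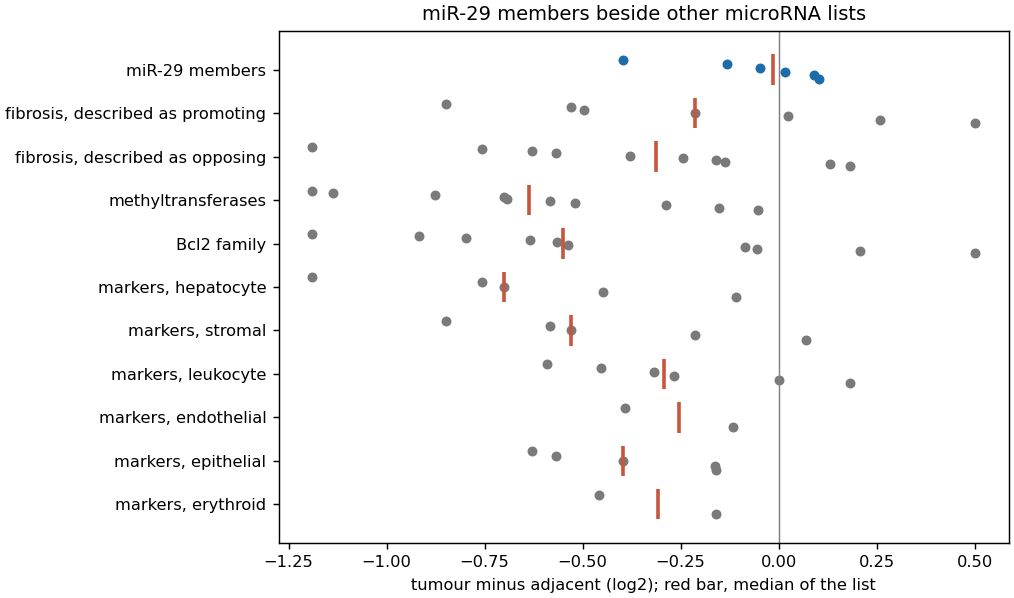
Difference between tumour and adjacent liver (log2) of each miR-29 member (top) and of each measured member of the other lists, with the list median as a red bar. The miR-29 median of -0.01 lies right of those of the other lists, which run from -0.70 for hepatocyte markers to -0.21 for microRNAs described as promoting fibrosis. The miR-29 members themselves run from -0.40 (miR-29c) to 0.10 (miR-29c*).

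Markers of the cell types that could hold miR-29 mostly had lower means in tumours. Among the 174 microRNAs brightest in adjacent liver, 90.8% did so too. The 5 hepatocyte markers all had a lower mean in tumours (median -0.70, and -0.89, -0.26 and -0.86 by pair), led by miR-101a, miR-194 and miR-148a (-0.70). The smallest difference was that of miR-122 (-0.11; limma adjusted p = 0.66), with -0.0025, 0.07 and -0.39 in pairs 1293, 1309 and 1316. The level of the 5 summed on the linear scale, written as log2, was 15.08 to 15.12 in adjacent liver and 14.66 to 15.08 in tumours. Most of that sum was miR-122, which alone ran from 14.75 to 14.82 in adjacent liver and from 14.42 to 14.82 in tumours. Of the 5 stromal markers, which stand for stellate cells, fibroblasts and smooth muscle, 4 were lower (median -0.53, and -0.87, -0.36 and -0.37 by pair), led by miR-199a-3p, miR-143 (-0.58) and miR-214. Their sum was 9.58 to 9.70 in adjacent liver and 8.99 to 9.28 in tumours, with no overlap. Of single rows, 22.9% of all 695 had all tumours below all adjacent pieces. Among the 174 brightest in adjacent liver, which hold 4 of the 5 stromal markers, 65.5% did. Of 6 leukocyte markers 4 were lower (median -0.29, and -0.72, -0.08 and -0.13 by pair), led by miR-146a (-0.59), miR-223 (-0.45) and miR-142-5p (-0.32), with sums of 9.97 to 10.18 and 9.48 to 10.03. All 5 markers of bile duct and other epithelium were lower (median -0.40, and -0.31, -0.29 and -0.70 by pair; miR-429 -0.40). Their sums, 9.20 to 9.32 and 8.70 to 8.94, did not overlap either. Both endothelial markers (miR-126-3p -0.12, miR-126-5p -0.39) and both erythroid markers (miR-144 -0.46, miR-451 -0.16) were lower too, with pair medians of -0.45, -0.06 and -0.25 for endothelial and -0.59, -0.00015 and -0.33 for erythroid markers. Their sums were 10.49 to 10.59 in adjacent liver and 10.25 to 10.56 in tumours, and 9.50 to 10.41 and 9.44 to 10.08. Of all these markers, miR-200a and miR-200b alone were called in limma. The part of cell composition in the values of miR-29c was not tested.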

How the data were processed

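MicroRNA levels were measured on 1-colour Agilent arrays from total RNA labelled with cyanine 3, 1 array for each of 3 liver tumours and 3 adjacent pieces, per the labels' protocols. The deposited values are log2 values made by the authors with RMA, per the submitters' processing notes, which list RMA and limma and give no version. RMA returns base 2, so that base was assumed, being not given in the sources used here. The table held 695 rows with 0 missing values. Scanner output was not used here, and the number of arrays limits the precision.

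All 695 microRNAs were fitted with limma 3.58.1 (R 4.3.3; lmFit and eBayes), comparing tumours with adjacent pieces by a two-sided test with no block. P-values were adjusted over all rows (Benjamini-Hochberg) with a threshold of 0.05. The fits were tested on simulated data with the same spread in both groups. Tumours here scattered more widely than adjacent pieces (median SD ratio 2.93 over all rows), which those data did not mimic. Paralogs and arms were compared by exact permutation of within-array differences over all 20 splits of the 6 arrays (SciPy 1.17.1). Labels pair the samples by tumour number. Within pairs, deviations from group means had correlations of -0.05, 0.07 and -0.003 (pairs 1293, 1309 and 1316). Named microRNAs are all members, the 5 closest profiles, and up to 3 members of each list with the largest absolute differences, besides miR-122 and miR-21. Of the list entries, only miR-199b was not matched. Members, lists and tests were chosen with earlier results of these data known. Alternatives were the replicate block, quantile normalization, centring on the array median or 75th percentile, a filter on dim rows, an intensity trend with robust eBayes, array weights, and leaving out each array or pair. Figures were drawn with matplotlib 3.10.9.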

Additional observations from a re-analysis of the deposited data

How the results depend on the processing

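Over 17 alternatives, miR-29c stayed lower (-0.57 to -0.17), as did miR-29a* and miR-29b-1*. For miR-29c and miR-29b-1*, most of these could not have turned the sign. Every tumour lay below every adjacent piece, so leaving out or weighting arrays keeps their direction. For all members, the unweighted block, the filter on dim rows and the intensity trend return the main estimate. The replicate block changed no member's call (miR-29c, -0.40, limma adjusted p = 0.26). The difference of miR-29a turned to -0.022 with arrays centred on the 75th percentile and ran from -0.022 to 0.042 when an array or pair was left out. It was 0.097 after quantile normalization. When an array or pair was left out, the difference of miR-29b ran from -0.023 to 0.25, and that of miR-29c* from -0.18 to 0.26. Over all 17 alternatives miR-29b reached 0.32, after quantile normalization. With array weights miR-29c* was at -0.14, with or without the block. Members called lower numbered 0 or 1, and higher 0 or 1, when arrays or pairs were left out, and 1 was called higher with array weights. The median over members was -0.055 with centring on the 75th percentile, -0.070 with weights and block, and -0.067 to 0.0023 when arrays or pairs were left out. The change of miR-29a less that of miR-29b ran from -0.22 to 0.043 without single arrays. Over all microRNAs, 0 were called lower with the replicate block or with the intensity trend, 87 lower and 51 higher with array weights, and 35 and 38 with weights and block. Leaving out arrays or pairs gave 0 to 85 lower and 8 to 51 higher. Causes of these shifts were not tested. With 3 arrays a group, the exact test cannot reach a p below 0.10.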
